A study of Homo sapiens with 5 samples.

Results

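Of 9176 H3K9bhb peaks on chromosomes 1 to 22, X and Y, 2169 were overlapped by no peak of wild type ENL and by no peak of ENL Y78A, not even by 1 bp. They were selected on the called peak positions of these 3 libraries, so the absence of ENL peaks is their definition and not a result. These ENL-free peaks made up 23.6% of the H3K9bhb list (95% Wilson interval 22.8 to 24.5), and the remaining 7007 peaks had ENL. Of those with ENL, 4106 were overlapped by both ENL proteins, 2747 by wild type alone and 154 by Y78A alone. The peaks come from CUT&Tag, which directs a transposase to antibody-bound chromatin, in HepG2, a human liver cancer line. The libraries used were H3K9bhb (β-hydroxybutyryl-lysine 9 of histone H3), Flag-tagged ENL wild type and Flag-tagged ENL with the Y78A substitution, with H3K9ac (acetylation) and H3K9cr (crotonylation) as marks that the selection did not use. The design text names cells that stably express Flag-tagged ENL. The sources used here do not say whether the mark libraries used these cells, which promoter drove the transgene, whether a line was 1 clone or whether ketone bodies were added.

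β-Hydroxybutyrate is a ketone body that the liver makes from fatty acids in fasting, and its acyl group can be placed on histone lysines, where in mouse liver it was linked with genes of the fasting response. ENL, the product of MLLT1, belongs to transcription elongation complexes and binds acylated lysines through its YEATS domain. Tyrosine 78 lines the acyl-lysine pocket of that domain, and alanine in its place weakens binding. An H3K9bhb peak without ENL is therefore a place where the mark was called and its proposed reader was not.

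Each group was 1 library, so no difference had a replicate check, and every interval covers counting error only. Peaks of 1 library are not replicates either. Read totals are unknown, and an ENL-free peak is one without a called ENL peak, which does not show that ENL was absent. The lists were cut at different thresholds, and the smallest −log10 q was 2.02 for H3K9bhb, 1.31 for H3K9ac, 1.34 for H3K9cr, 2.05 for the wild type ENL list and 2.04 for the Y78A list. Peak names inside the H3K9ac list begin with ENL1, against its label, so each result that uses H3K9ac, alone or with H3K9cr, rests on that label. As a check of the cell line, HNF4A, FOXA2, CEBPA, APOA1 and APOB, genes of liver identity, had H3K9ac at a gene end. ALB, AFP, TTR and SERPINA1 had no gene-end peak in any list. None of these genes had an ENL-free H3K9bhb peak.

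Promoters carrying ENL-free peaks of high fold are shown to let the sequence under the mark be read beside its values. Each is the RefSeq entry of GRCh38.p14 (the assembly also named hg38), from 250 bases before to 50 after the gene start, 5′ to 3′ on the gene's strand, and capitals mark the bases inside the H3K9bhb peak. The windows are chr11:94493734-94494033 (plus strand) for ANKRD49, chr5:150904931-150905230 (minus) for ZNF300, chr9:92325218-92325517 (plus) for CENPP and chr5:113513444-113513743 (plus) for YTHDC2. They are the 4 highest folds among ENL-free peaks that cover at least 100 bases of such an entry.
ANKRD49: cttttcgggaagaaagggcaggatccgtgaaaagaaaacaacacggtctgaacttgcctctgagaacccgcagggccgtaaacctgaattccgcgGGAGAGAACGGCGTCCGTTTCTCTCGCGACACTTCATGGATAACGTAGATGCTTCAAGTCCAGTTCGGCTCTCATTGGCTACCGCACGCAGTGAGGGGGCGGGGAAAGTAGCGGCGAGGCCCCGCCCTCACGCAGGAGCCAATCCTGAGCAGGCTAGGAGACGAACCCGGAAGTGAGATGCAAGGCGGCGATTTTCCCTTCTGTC
ZNF300: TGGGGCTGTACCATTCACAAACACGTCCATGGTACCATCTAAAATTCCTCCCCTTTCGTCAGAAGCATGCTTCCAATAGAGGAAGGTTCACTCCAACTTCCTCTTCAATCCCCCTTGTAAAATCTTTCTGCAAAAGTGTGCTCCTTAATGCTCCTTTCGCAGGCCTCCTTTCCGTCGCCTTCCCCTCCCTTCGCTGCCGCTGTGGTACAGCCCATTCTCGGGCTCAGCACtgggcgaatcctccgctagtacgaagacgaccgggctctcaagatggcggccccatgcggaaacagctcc
CENPP: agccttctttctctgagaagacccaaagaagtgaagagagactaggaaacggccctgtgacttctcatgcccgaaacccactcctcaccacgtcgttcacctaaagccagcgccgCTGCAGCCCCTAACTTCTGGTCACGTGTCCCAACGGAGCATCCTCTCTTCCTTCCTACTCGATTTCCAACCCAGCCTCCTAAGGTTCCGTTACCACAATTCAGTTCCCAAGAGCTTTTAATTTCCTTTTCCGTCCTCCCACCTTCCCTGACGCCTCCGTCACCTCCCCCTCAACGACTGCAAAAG
YTHDC2: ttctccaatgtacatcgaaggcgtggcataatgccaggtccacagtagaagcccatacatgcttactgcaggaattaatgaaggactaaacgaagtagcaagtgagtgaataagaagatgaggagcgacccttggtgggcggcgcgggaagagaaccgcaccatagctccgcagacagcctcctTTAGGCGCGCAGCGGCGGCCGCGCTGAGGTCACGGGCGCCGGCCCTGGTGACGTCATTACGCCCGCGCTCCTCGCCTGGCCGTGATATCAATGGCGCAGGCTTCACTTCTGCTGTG
C4BPA (chr1:207103983-207104282, plus) and TAFA4 (chr3:68932498-68932797, minus) are shown because their ENL-free peaks also lacked H3K9ac. The 4 promoters above held 25, 15, 14 and 25 CG dinucleotides in the order printed, while C4BPA held 5 and TAFA4 held 37.
C4BPA: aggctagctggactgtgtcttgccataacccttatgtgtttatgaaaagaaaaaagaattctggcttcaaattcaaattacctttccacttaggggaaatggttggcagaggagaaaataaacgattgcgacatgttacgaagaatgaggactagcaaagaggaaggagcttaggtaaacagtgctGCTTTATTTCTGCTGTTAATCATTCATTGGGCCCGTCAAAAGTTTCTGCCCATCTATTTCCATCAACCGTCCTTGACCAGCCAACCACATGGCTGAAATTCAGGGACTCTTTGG
TAFA4: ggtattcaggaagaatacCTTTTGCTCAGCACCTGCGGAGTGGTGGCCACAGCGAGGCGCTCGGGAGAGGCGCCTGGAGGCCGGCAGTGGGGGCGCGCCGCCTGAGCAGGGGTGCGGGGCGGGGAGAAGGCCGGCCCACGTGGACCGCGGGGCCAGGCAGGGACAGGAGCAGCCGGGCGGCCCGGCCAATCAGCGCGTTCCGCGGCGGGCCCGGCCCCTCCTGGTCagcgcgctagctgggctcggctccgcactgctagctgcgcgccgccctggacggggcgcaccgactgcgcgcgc
LMAN1 (chr18:59359216-59359515, minus) is given for comparison, since its H3K9bhb peak had wild type ENL, and it held 31 CG dinucleotides. Among peaks with wild type ENL that cover at least 100 bases of a promoter entry, it is the second by fold. The first, SPATC1L, has 11 CG dinucleotides and is not printed.
LMAN1: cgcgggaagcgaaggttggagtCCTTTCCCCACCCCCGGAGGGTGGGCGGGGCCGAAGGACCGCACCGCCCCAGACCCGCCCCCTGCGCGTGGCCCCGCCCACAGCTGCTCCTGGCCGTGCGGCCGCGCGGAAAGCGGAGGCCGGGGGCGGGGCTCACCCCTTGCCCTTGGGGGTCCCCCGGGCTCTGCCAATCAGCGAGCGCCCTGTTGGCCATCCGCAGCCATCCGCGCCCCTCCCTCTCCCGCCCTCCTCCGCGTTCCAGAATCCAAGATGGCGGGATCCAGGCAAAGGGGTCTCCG

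ENL-free peaks were smaller than H3K9bhb peaks with ENL, in fragments and in width far more than in fold. From the deposited fold and −log10 p, the whole number of fragments at the summit and the caller's background could be recovered for 100% of the H3K9bhb peaks. The median summit held 15 fragments in ENL-free peaks (quartiles 13 and 19), against 23 in peaks with ENL (18 and 30). Median width was 267 bp (quartiles 219 and 337), against 395 bp with ENL (291 and 528.5). The authors' fold, the summit signal over the background, had a median of 4.68 (quartiles 4.09 and 5.38), against 5.01 with ENL (4.21 and 6.05). The recovered background under the summit was also lower, with a median of 2.39 fragments against 3.72 with ENL. These values overlap broadly between the sets, and ENL-free peaks reached 118 fragments, 949 bp and 9.96-fold.

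**Figure D1:**
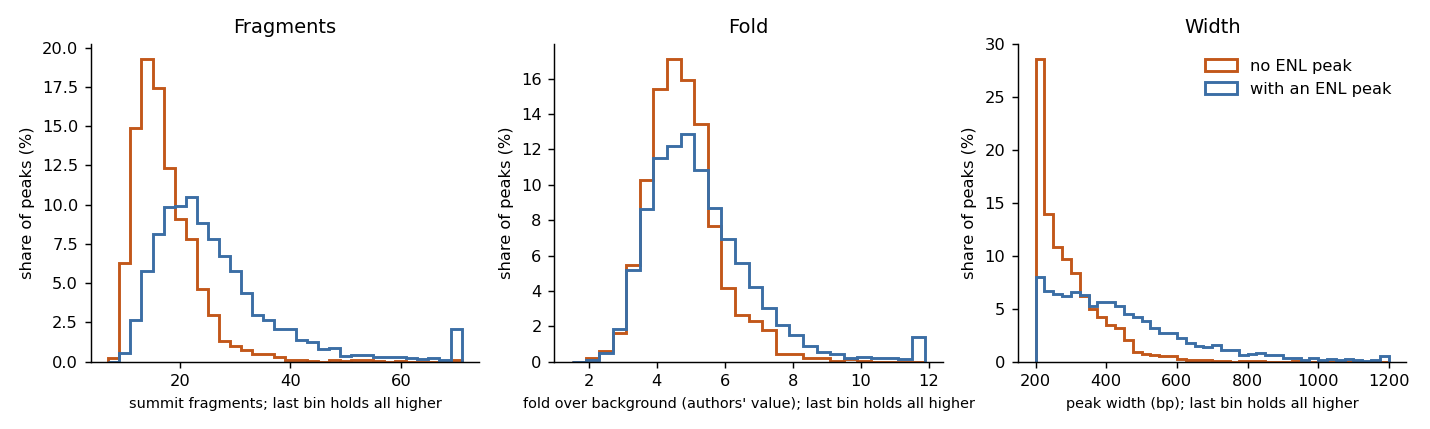
Summit fragments, fold and width (bp) of H3K9bhb peaks without ENL (orange) and with ENL (blue), as the share of each set per bin, with higher values in the last bin. The fragment and width curves of the 2169 ENL-free peaks lie to the left (medians 15 fragments and 267 bp, against 23 and 395 bp), while the fold curves share most of their range.

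The share of H3K9bhb peaks without ENL was lower among stronger peaks. With the H3K9bhb list divided into 4 equal groups by −log10 p, from weakest to strongest, 46.9%, 29.2%, 15.3% and 3.14% of peaks were ENL-free. By width the shares were 45.6%, 29.03%, 16.3% and 3.71%, from narrowest to widest. By fold they were 26.4%, 29.6%, 25.1% and 13.5%, so fold separated the sets less. A narrow peak has fewer bases with which to meet another peak. The main differences in marks, gene ends and gene starts are therefore also given inside such groups.

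At the edge of the rule, gaps and overlaps were a few bases. The ENL-free peak nearest to ENL lay 4 bp from it, on chromosome 3 (122780403 to 122780610), with a fold of 5.86. The next 4 lay 5 to 7 bp away, with folds between 3.64 and 5.34. Just outside, a 4.62-fold peak on chromosome 3 (141487215 to 141487451) shared 2 bp with ENL, and the next 4 shared 4 to 10 bp at folds between 4.11 and 5.25. Such edge cases were few. Only 37 ENL-free peaks (1.71%) lay within 100 bp of an ENL peak and 143 (6.59%) within 1 kb. The median gap to the nearest ENL peak of either kind was 44613 bp (quartiles 15134 and 113023). Peaks of the set were also mostly single, since 26 had another ENL-free peak within 1 kb and 57 had an H3K9bhb peak with ENL within 1 kb.

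**Figure D2:**
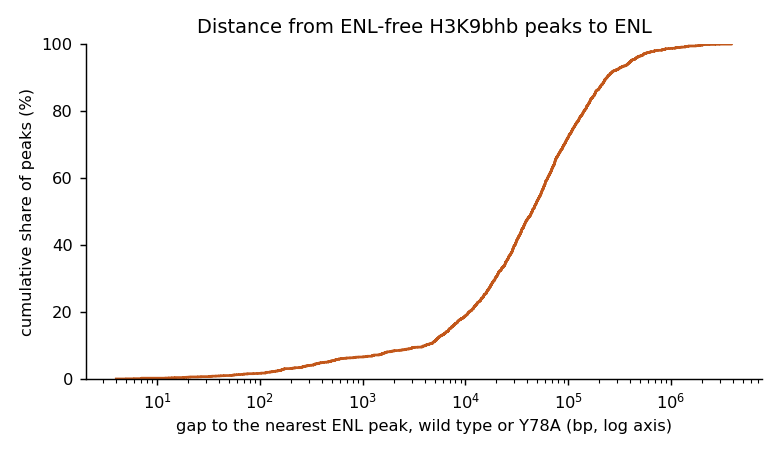
Cumulative share of the 2169 ENL-free H3K9bhb peaks by the gap to the nearest peak of wild type or Y78A ENL (bp, log axis). The curve stays low up to 1 kb (6.59%) and passes its middle near the median gap of 44613 bp.

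H3K9ac, a mark that the rule did not use, lay on most ENL-free peaks, though on fewer of them than of the peaks with ENL. It overlapped 1411 of 2169 ENL-free peaks (65.1%, interval 63.02 to 67.03), against 6142 of 7007 with ENL (87.7%, interval 86.9 to 88.4) and 82.3% of all H3K9bhb peaks. The H3K9ac list is far longer than that of H3K9cr (31493 and 3852 peaks), and with its 3852 strongest peaks alone H3K9ac lay on 15.7% of ENL-free peaks, so the level of this share rests on list length. The difference was −22.6 points (Newcombe interval −24.8 to −20.5). Among peaks of like −log10 p the difference was present in each group, with values of −16.9, −16.9, −20.04 and −27.6 points from weakest to strongest. Among peaks of like width it was −18.9, −15.6, −9.96 and −8.82 points, from narrowest to widest. In the strongest group 48 of 72 ENL-free peaks had H3K9ac (66.7%, interval 55.2 to 76.5), against 94.2% with ENL.

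The absence of ENL mostly held along the whole H3K9ac peak, which the rule fixes in part and which is given as a description. Of the 1411 ENL-free peaks with H3K9ac, 88 (6.24%, interval 5.09 to 7.62) lay on an H3K9ac peak that met ENL elsewhere along its length, while 12.8% of H3K9ac peaks on no H3K9bhb peak and 29.4% of all H3K9ac peaks met ENL. The 1381 H3K9ac peaks on ENL-free peaks alone had a median width of 641 bp and 34 summit fragments. The 6125 on H3K9bhb peaks with ENL alone had 877 bp and 48 fragments. The 23957 on no H3K9bhb peak had 377 bp and 29 fragments. Acetylation at ENL-free peaks thus lay between the other sets in width and in fragments within the H3K9ac library. By fold the order differed, at 4.13 on ENL-free peaks, 3.90 on peaks with ENL and 3.305 on no H3K9bhb peak.

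H3K9cr, in a shorter list, lay on fewer ENL-free peaks, and its difference from the peaks with ENL depended on peak strength. It overlapped 299 of 2169 ENL-free peaks (13.8%, interval 12.4 to 15.3), against 1989 of 7007 with ENL (28.4%, interval 27.3 to 29.5) and 24.9% of all H3K9bhb peaks. The difference was −14.6 points (interval −16.4 to −12.8). Inside the 4 groups of −log10 p, ENL-free peaks had H3K9cr in 10.03%, 12.7%, 22.9% and 36.1% of cases, against 10.7%, 14.7%, 22.6% and 53.2% with ENL. The intervals of the difference held 0 in the 3 weaker groups (−3.14 to 1.87, −4.96 to 1.16 and −4.24 to 5.29 points). They did not in the strongest group (−27.4 to −5.32), where 26 of 72 ENL-free peaks carried H3K9cr. Inside the groups of width, from narrowest to widest, the difference was −6.53, −6.99, −9.07 and −17.8 points. Peaks with neither H3K9ac nor H3K9cr made up 30.4% of ENL-free peaks (660, interval 28.5 to 32.4), against 9.98% of those with ENL and 14.8% of all H3K9bhb peaks.

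**Figure D3:**
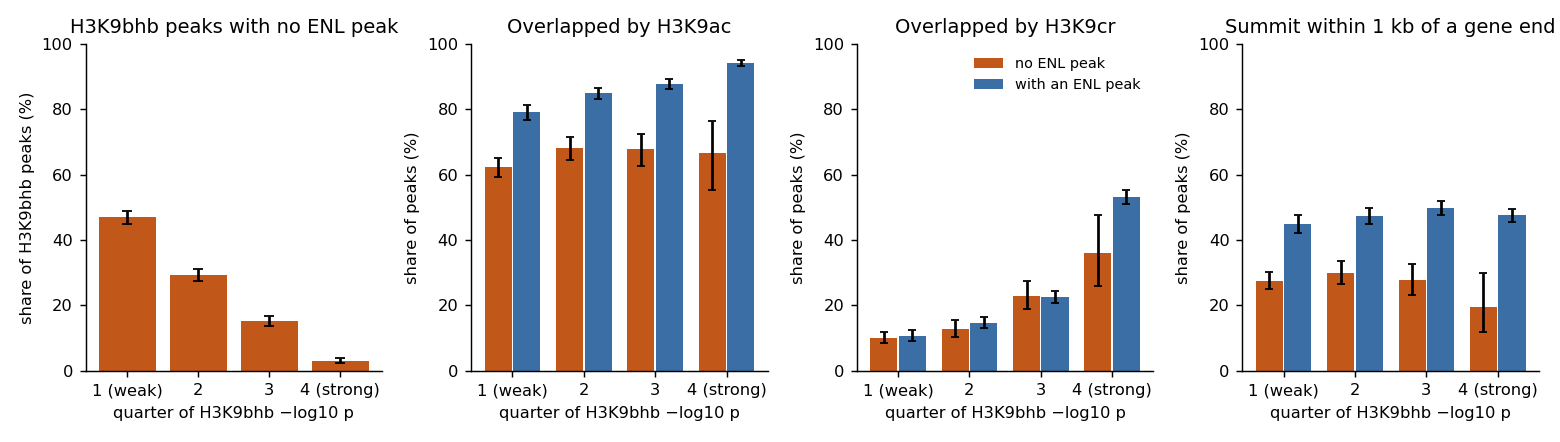
Share of H3K9bhb peaks that were ENL-free (first panel), then the shares overlapped by H3K9ac, overlapped by H3K9cr and with the summit at a gene end, for peaks without ENL (orange) and with ENL (blue), in 4 equal groups of H3K9bhb −log10 p. Bars are percentages with 95% Wilson intervals (counting error). The H3K9ac and gene-end gaps are present in each group, while the H3K9cr bars differ by more than their intervals in the strongest group alone.

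ENL-free peaks were found inside genes more often and at gene ends less often. Summits within 1 kb of either end of a protein-coding gene made up 609 of 2169 (28.1%, interval 26.2 to 30.01), against 47.7% with ENL (interval 46.5 to 48.8) and 43.0% of all H3K9bhb peaks. The difference was −19.6 points (interval −21.8 to −17.3) and lay between −28.1 and −17.3 points inside the groups of −log10 p. Inside the groups of width it was −12.9, −11.8, −10.8 and −16.9 points, from narrowest to widest. A further 830 ENL-free summits (38.3%) lay in gene bodies, against 24.6% with ENL. The other 730 (33.7%) lay between genes, against 27.7%. At a distance above 100 kb from the nearest such gene lay 348 of them (16.04%), against 11.6% with ENL.

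Where the peak lay went with which marks it carried. At gene ends 575 of 609 ENL-free peaks had H3K9ac (94.4%, interval 92.3 to 95.98), against 97.1% with ENL, a difference of −2.68 points (interval −4.86 to −0.996). In gene bodies the shares were 57.7% and 79.6% (difference −21.9 points, interval −25.8 to −18.1). Between genes they were 48.9% and 78.5% (difference −29.6 points, interval −33.7 to −25.6). Read as the share lacking H3K9ac, the values were 5.58% of ENL-free peaks at gene ends, 42.3% in gene bodies and 51.1% between genes, against 2.91%, 20.4% and 21.5% with ENL. The ratio of these shares was 1.92, 2.08 and 2.38, so it varied less by position than the difference in points. The level of H3K9cr was lowest at gene ends, with 3.12% of ENL-free peaks at gene ends, 14.8% in gene bodies and 21.5% between genes, against 18.9%, 30.3% and 43.004% with ENL. Its differences were −15.8, −15.5 and −21.5 points. The class between genes includes peaks of the longest gene-free intervals, treated next. There H3K9cr lay on 53.4% of ENL-free peaks and 87.2% with ENL, and H3K9ac on 23.3% and 78.3%. The shares between genes without those intervals were not computed. At gene ends only 33 ENL-free peaks (5.42%) carried neither mark, whereas in gene bodies 325 (39.2%) and between genes 302 (41.4%) did.

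The 3 highest folds of ENL-free peaks lay in long stretches of chromosome without annotated genes. The longest gene-free interval of each chromosome, which in this assembly usually holds the centromere, contained 116 ENL-free peaks (5.35%, interval 4.48 to 6.38), against 4.47% of peaks with ENL and 4.68% of all H3K9bhb peaks, and the interval of the difference held 0 (−0.127 to 2.01 points). Chromosomes 5, 19, 1 and 10 held 26, 25, 24 and 18 of the 116. Their median fold was 6.39 on a median background of 1.29 fragments, while ENL-free peaks at gene ends stood at 4.76-fold on 2.33 fragments. Peaks with ENL differed in the same way, at 7.32-fold on 1.73 fragments in these intervals and 5.08-fold on 3.66 at gene ends. The 3 ENL-free peaks of highest fold were a 9.96-fold peak on chromosome 5 (49208372 to 49208672) and 9.86-fold peaks on chromosome 1 (123466824 to 123467094) and chromosome 10 (40097756 to 40097988), with 21, 23 and 23 summit fragments. H3K9cr was on all 3, and H3K9ac on those of chromosomes 1 and 10. Of the 116, 62 had H3K9cr (53.4%, interval 44.4 to 62.3), against 87.2% with ENL, and 27 had H3K9ac (23.3%, interval 16.5 to 31.7), against 78.3% with ENL. Whether reads that match several places were removed is not given, and its part in these peaks was not tested.

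**Figure D4:**
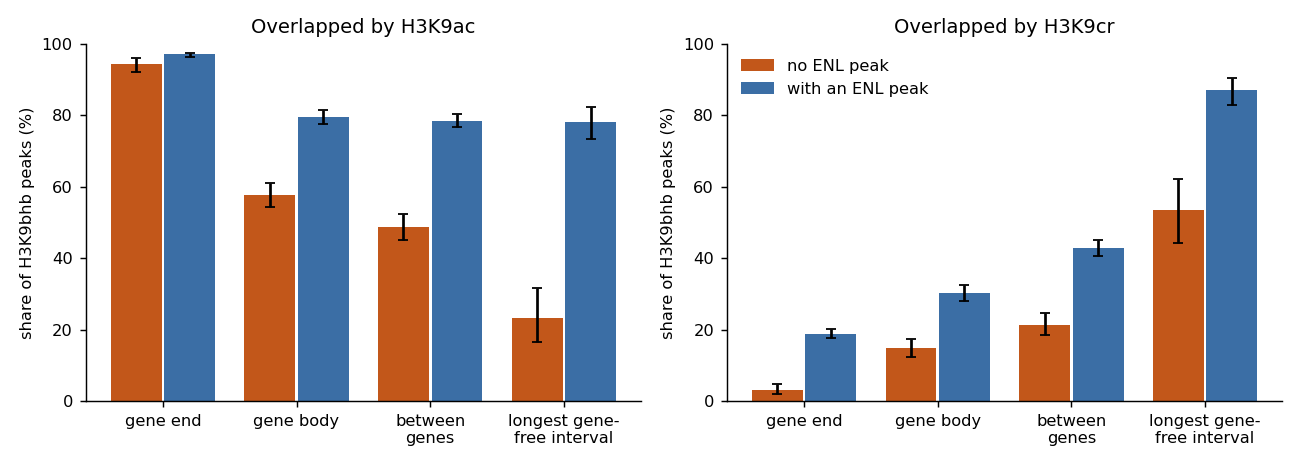
Share of H3K9bhb peaks overlapped by H3K9ac (left) and H3K9cr (right) for peaks without ENL (orange) and with ENL (blue), by position of the summit, with 95% Wilson intervals (counting error). The gene-free class is drawn from peaks of the other classes. H3K9ac is at 94.4% and 97.1% at gene ends and parts away from them, while H3K9cr is lowest at gene ends.

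Outside these intervals and outside genes, the 5 highest ENL-free peaks, a set chosen after the values were seen, were on chromosomes 9, 3, 22, 6 and Y at 8.74-, 8.14-, 7.53-, 7.49- and 7.42-fold. The one on chromosome 6 (147667 to 148038) had 37 summit fragments and the largest −log10 p of all ENL-free peaks, 23.2. It carried H3K9ac, while the other 4 had no H3K9ac. In gene bodies, 4 of the 5 highest, chosen likewise, are given, and the highest is not among them. DPP6, an auxiliary subunit of potassium channels, stood at 7.85-fold, 620 bp from a wild type and 548 bp from a Y78A ENL peak. TRIM16, a tripartite motif protein, followed at 7.81-fold, 21 bp from a wild type ENL peak. LGR5, an R-spondin receptor and target of Wnt signalling, had a 7.74-fold peak on chromosome 12 (71564093 to 71564382) with H3K9cr and without H3K9ac. NKAP, a nuclear regulator of transcription and splicing, stood at 7.70-fold.

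At gene ends, ENL-free peaks belonged to 707 protein-coding genes, 3.53% of 20037, while any H3K9bhb summit lay at 23.1% of them. Of the 707 genes, 615 (87.0%, interval 84.3 to 89.3) had no ENL peak within 1 kb of either end, and 39 also had an H3K9bhb peak with ENL. H3K9ac was at 596 of these 615 genes (96.9%, interval 95.2 to 98.01), against 56.4% of all protein-coding genes. This high share was not particular to them, since H3K9ac also lay on 97.1% of gene-end H3K9bhb peaks with ENL, counted by peak. H3K9cr was at 22 of the 615 genes (3.58%, interval 2.37 to 5.36), against 19.5% of genes with an ENL-bearing H3K9bhb peak and 4.49% of all protein-coding genes.

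The gene-end peak of highest fold was at ANKRD49, which encodes an ankyrin repeat protein, on chromosome 11 (94493829 to 94494205). It had 19 summit fragments over a background of 1.21, which is the authors' 9.06-fold, with H3K9ac at 6.16-fold and the nearest wild type ENL peak 541085 bp away. PABIR1, an inhibitor of protein phosphatase 2A, had 23 fragments and 8.94-fold on chromosome 9 (68780050 to 68780304). The peak by GPR171, a neuropeptide receptor, lay at its far end at 8.77-fold. MRPL15, a protein of the mitochondrial ribosome, followed at 8.26-fold and ZNF300, a KRAB zinc finger protein whose promoter is printed above, at 8.15-fold on 17 fragments. These 5 genes were also the 5 highest without ENL at either end.

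A peak at 7.42-fold was shared by the ends of CENPP, a kinetochore subunit, and NOL8, a nucleolar protein. PRMT3, an arginine methyltransferase that acts on a ribosomal protein, had the same fold, with the nearest wild type ENL peak 1752524 bp away. YTHDC2, an RNA helicase that binds methylated adenosine, stood at 7.39-fold, CCDC66, a centrosome and cilium protein, at 7.36-fold and USP40, a deubiquitinase, at 7.29-fold. All 10 peaks had H3K9ac and none had H3K9cr. For comparison, the highest gene-end peaks with wild type ENL were at LOC124905351 (14.4-fold, 156 fragments), SPATC1L (14.4-fold, 77 fragments), LRIF1 (11.4-fold), LMAN1 (10.9-fold) and LOC124903130 (10.3-fold). All of these except LMAN1 were also met by peaks of Y78A, H3K9ac and H3K9cr. The LMAN1 peak had H3K9ac, at 6.18-fold, and neither Y78A nor H3K9cr. Their ranks in the other lists were not computed. The LOC124905351 peak lay near the tip of chromosome 3 (10052 to 10904).

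Gene-end peaks without ENL and without H3K9ac numbered 34. TEX48, a gene named for expression in testis, led at 7.24-fold on 15 fragments. ANKRD18B followed at 5.68-fold on 12. C4BPA, the alpha chain of a complement inhibitor secreted by hepatocytes, had 5.43-fold on 11 fragments, with its summit 9 bp from the gene start. TAFA4, a secreted chemokine-like protein, had the same fold and fragments, and NXN, a redox regulator of Wnt signalling, 5.39-fold on 11. Except for TEX48, which stood at the median of 15 fragments, these counts lie below the lower quartile of ENL-free summits, 13.

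Only 19 gene-end peaks without ENL had H3K9cr. The highest, at 6.28-fold, was shared by the ends of FANCF, of the Fanconi anaemia core complex, and GAS2. It was followed by WDR11 at 6.25-fold and LIN7C, a scaffold of cell polarity, at 6.20-fold. GARS1, glycyl-tRNA synthetase, stood at 6.01-fold with a wild type ENL peak 699 bp away, and ZNF770 at 5.62-fold. All 5 of these peaks also had H3K9ac.

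Few genes of the liver and housekeeping lists had an ENL-free peak. Over all protein-coding genes, 3.53% had an ENL-free peak and 19.8% an H3K9bhb peak with ENL. Among fasting and gluconeogenesis genes, 10 of 30 had H3K9bhb with ENL and 0 had an ENL-free peak. The same held for elongation complexes (14 and 0 of 30) and liver transcription factors (6 and 0 of 30). In fatty acid oxidation and ketone bodies the numbers were 1 ENL-free and 10 with ENL of 36, and the one was HADH, a dehydrogenase of β-oxidation, at 5.42-fold on chromosome 4 (107989516 to 107990055). In liver secreted proteins they were 2 and 8 of 36, with C4BPA and F10 (coagulation factor X, 3.32-fold). With counts of 0 to 3 a list, these shares cannot be told from the 3.53% background.

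Cell cycle genes had 3 ENL-free and 16 with ENL of 38. CCNB2, a mitotic cyclin, stood at 5.97-fold, CCNE2, a cyclin of the G1 to S transition, at 5.54-fold and RBL1, a pocket protein, at 3.88-fold with ENL 164 bp away. Large-subunit ribosomal proteins had 3 and 13 of 41, with RPL6 at 5.23-fold, RPL32 at 4.96-fold and RPL24 at 4.48-fold. Lysine acylation enzymes and readers had 1 and 13 of 28, and the one was HDAC3, a histone deacetylase, at 3.81-fold. Cholesterol and lipid synthesis had 1 and 15 of 30, the one being CYP51A1, a demethylase of sterol synthesis, at 3.87-fold with ENL 213 bp away. RBL1 and CYP51A1 also had an H3K9bhb peak with ENL at a gene end, so each is in both counts of its list. Genes of other tissues had no H3K9bhb peak at any of 36 members.

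Around gene starts, summits with ENL lay more often upstream of the start, and ENL-free summits lay more often within 150 bp of it. Taking the 491 ENL-free and 2905 ENL-bearing summits within 1 kb of a protein-coding start, the median position was 20 bp downstream (quartiles −133.5 and 109.5), against −93 bp, upstream, with ENL (quartiles −200 and 67). Downstream of the start were 266 of 491 (54.2%, interval 49.8 to 58.5), against 1070 of 2905 (36.8%, interval 35.1 to 38.6), a difference of 17.3 points (interval 12.6 to 22.03). Inside the groups of −log10 p the differences were 9.83, 12.3, 11.9 and 37.8 points, from weakest to strongest, and the last rests on 9 ENL-free summits. The part of the difference in peak strength in this shift was not tested beyond these groups.

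**Figure D5:**
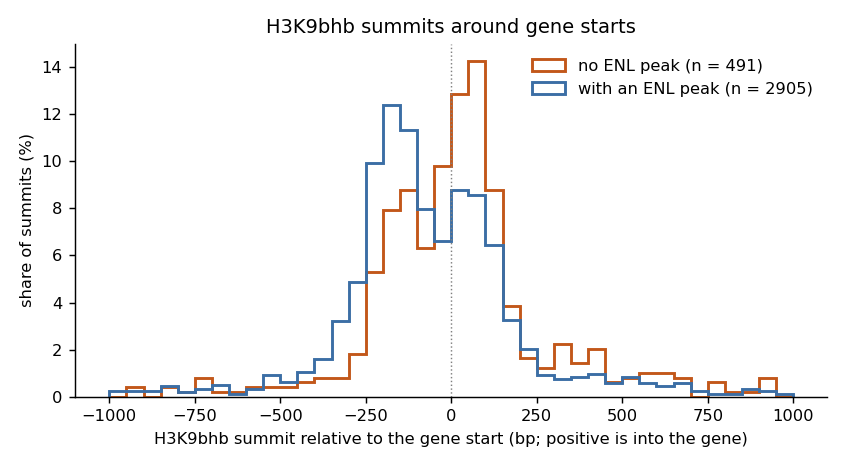
Position of H3K9bhb summits relative to the nearest protein-coding gene start (bp, positive into the gene), in bins over 1 kb each way, for 491 summits without ENL (orange) and 2905 with ENL (blue), as shares of each set. The tallest bins without ENL lie just downstream of the start and those with ENL upstream of it (medians 20 and −93 bp).

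Promoters under ENL-free peaks were rich in CG, like those under peaks with ENL. RefSeq gave promoter entries for 15843 of the 20037 protein-coding genes, and 448 were met by an ENL-free peak. Their median GC content was 65.0% and their median number of CG dinucleotides 27 in 300 bases. Promoters under peaks with ENL (3021) had 66.3% and 28, and all entries 62.7% and 22. Short motifs were then counted on both strands as letters in these windows. CCAAT, the NF-Y box, was in 158 of 448 (35.3%, interval 31.0 to 39.8), against 47.1% with ENL (interval 45.4 to 48.9) and 36.4% of all entries. The difference was −11.9 points (interval −16.5 to −7.001). Inside the groups of −log10 p it was −6.83, −6.42, −18.5 and −4.87 points, and only the third interval (−27.9 to −7.31) left out 0. In the narrowest of 4 width groups it was 0.539 points, so peak width moves with this difference. Its part was not tested beyond these groups.

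Of the other motifs, NRF1 (GCGCATGCG) was in 2.46% of promoters under ENL-free peaks (interval 1.38 to 4.34), against 5.56% with ENL (interval 4.80 to 6.44) and 2.76% of all entries. That is 11 promoters of the ENL-free set, and inside each group of −log10 p the interval of the difference held 0. GGGCGG, the GC box, was in 74.3% of promoters under ENL-free peaks (interval 70.1 to 78.2), against 80.4% with ENL and 58.5% of all entries. Its difference was 3.70, −7.48, −9.93 and −20.2 points inside the groups of −log10 p, from weakest to strongest. The sign turned in the weakest, which holds 199 of the promoters, but the interval there held 0 (−3.69 to 10.5). The strongest group rests on 11 promoters, and its interval held 0 too (−48.5 to 1.11). In the middle groups the interval left out 0. CCGGAAG, an ETS-type site, was in 25.7%, against 22.97% and 14.2%. CACGTG, the E-box, was in 12.3%, against 10.7% and 8.88%. TATAAA was in 2.68%, against 3.61% and 9.63%. The intervals of the ENL-free set overlapped those of the set with ENL for these 3 motifs and for the other 5 searched. Of the promoters printed above, that of ANKRD49 holds CCAAT in both orientations (CCAAT and ATTGG), those of ZNF300, YTHDC2, TAFA4 and LMAN1 hold it as CCAAT, that of C4BPA holds ATTGG, and that of CENPP holds neither.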

How the data were processed

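Peak lists of 5 CUT&Tag libraries of HepG2 cells were analysed, 1 per group, grouped by sample title. Per the submitters' processing notes, the authors used hg38 with MACS2, Bowtie2, FastQC and deepTools. The sources used here give no versions, call settings, controls, duplicate removal or read totals, so depth is unknown. In the deposited lists, fold is a ratio of summit signal to background. Significance was deposited as −log10 p and −log10 q, with a whole-number score. Folds were compared within a list. Summit fragments solve the deposited fold (1 added to fragments and background) and the Poisson −log10 p, within a relative tolerance of 3e-05.

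Overlap needed 1 bp. The code gave the same 2169 peaks as bedtools 2.31.1 and, on simulated data, found 100% of 8404 planted calls and 100% of 751 fragment numbers from 8 to 300. Intervals are 95% Wilson and Newcombe (scipy 1.17.1). Gene ends were windows of 1 kb around both ends of 20037 protein-coding RefSeq genes (GRCh38).

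Named genes followed a rule on the H3K9bhb fold at gene ends: the 10 highest ENL-free peaks, the 5 highest without H3K9ac, with H3K9cr and without ENL at either end, the 3 strongest outside genes, 5 with wild type ENL, and up to 4 of each of 10 gene lists (all symbols matched). Genes joined by readthrough were skipped. Of 11 motifs searched, 6 are given with values. The members, lists and rules were chosen with earlier results of these data known. No comparison has replicates, so none was tested. Some items are not reported here.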

Additional observations from a re-analysis of the deposited data

Results flagged for a closer look

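H3K9bhb peaks also lay on contigs outside chromosomes 1 to 22, X and Y, which the comparisons above did not use. Of 484 such peaks, 93 were overlapped by no ENL peak of either kind (19.2%, 95% Wilson interval 15.95 to 22.96), against 23.6% on the standard chromosomes. These peaks stand out only as a signal in data outside the main measurement.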

How the results depend on the processing

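No paired analysis was possible because each group holds 1 library. For the same reason none was left out. The H3K9ac and gene-end differences kept their negative sign, and the downstream-summit difference its positive sign, under all alternatives run. Those for H3K9cr and CCAAT changed sign once each. Differences that moved beyond the interval of the main value, and counts that moved by over 1.5 times, follow, and the cause was not tested beyond what each setting changes.

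With H3K9bhb peaks of −log10 q 5 or more, 1070 ENL-free peaks remained at 358 genes. With Y78A alone ending membership there were 4916 at 2243 genes, and the differences from peaks with Y78A were −15.5 points for H3K9ac, −22.2 for H3K9cr and −9.16 for gene ends. With wild type alone the H3K9cr difference was −12.3 points. With ENL peaks of −log10 q 5 or more the H3K9ac and gene-end differences were −19.97 and −17.02, and with ENL at the H3K9bhb summit the H3K9ac difference was −20.5. Mark lists of equal length (3852 peaks) gave −15.2 for H3K9ac, which then lay on 15.7% of ENL-free peaks. Marks covering at least 50% of the peak gave −9.80 for H3K9cr. Inside groups of −log10 p, from weakest to strongest, H3K9ac gave −16.9, −16.9, −20.04 and −27.6, H3K9cr −0.654, −2.03, 0.275 and −17.04, gene ends −17.3, −22.03 and −28.1 in the upper 3, downstream summits 9.83, 12.3, 11.9 and 37.8, and CCAAT −6.83, −6.42, −18.5 and −4.87. Inside groups of width, from narrowest to widest, H3K9ac gave −18.9, −15.6, −9.96 and −8.82, H3K9cr −6.53, −6.99, −9.07 and −17.8, gene ends −12.9, −11.8, −10.8 and −16.9, downstream summits 12.2 in the second, and CCAAT 0.539, −4.38, −21.1 and −23.5. The groups for summits and CCAAT, and a run without the longest gene-free intervals, were added after seeing the data. Leaving out those intervals moved the H3K9ac share of ENL-free peaks to 67.4% and the H3K9cr share to 11.5%, and no difference beyond its interval. Over all alternatives, the levels in ENL-free peaks ran from 15.7% to 75.1% for H3K9ac, 11.5% to 17.5% for H3K9cr, 22.6% to 38.8% for gene ends, 4.62 to 5.30 for the median fold and 267 to 299 bp for the median width. Depth is unknown for all 5 lists, and its part in the absence of an ENL peak was not tested.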

Other observations

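Genes named ZNF, most of which encode zinc finger proteins, were 38 of the 707 genes with an ENL-free H3K9bhb peak at an end (5.37%, 95% Wilson interval 3.94 to 7.29), against 115 of 3969 genes with an ENL-bearing one (2.90%, interval 2.42 to 3.47) and 2.58% of all protein-coding genes. Genes of mitochondrial ribosomal proteins (MRPL and MRPS) were 8 of 707 (1.13%, interval 0.574 to 2.22), against 21 of 3969 (0.529%, interval 0.346 to 0.808), with overlapping intervals. No olfactory receptor gene had an ENL-free peak at an end, and 1 of the 3969 genes with an ENL-bearing peak was of this family, against 1.96% of all protein-coding genes. These families were chosen after the values were seen, and the differences were not tested.

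Few H3K9bhb peaks of either set lay near genes of small RNA. ENL-free summits lay at or within 1 kb of a tRNA gene in 7 cases (0.323%), against 34 with ENL (0.485%), of a snoRNA gene in 1 case (0.0461%), against 18 (0.257%), and of a miRNA gene in 12 cases (0.553%), against 72 (1.03%), and the intervals overlapped between the sets in all 3 classes. Away from protein-coding gene ends, 93 of 1560 ENL-free summits lay at an end of a lncRNA gene (5.96%, interval 4.89 to 7.25), against 372 of 3668 with ENL (10.1%, interval 9.21 to 11.2). By chromosome, the ENL-free share of H3K9bhb peaks ran from 13.8% on Y (11 of 80) and 16.4% on 17 to 28.6% on 8 and 29.2% on 15.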
